A study of Sus scrofa with 9 samples.

Results

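The collagen genes were followed in the longissimus dorsi, the long back muscle, of pigs fed 3 levels of lysine. A gene was taken as a collagen gene where its symbol was COL, a number, A and a number and where its probe set named no other gene. Of 27558 probe sets, 34 met this rule and stood for 30 collagen genes, out of 12361 named genes. Each gene was read from 1 probe set, the one with the highest mean over the 9 arrays, and only COL1A1, COL6A3 and COL8A1 had more than 1. By class, 10 were fibrillar collagens, 5 were basement membrane collagens and 15 belonged to other types. A further 13 of the 43 collagen genes in the pig gene table, among them COL6A2, COL18A1, COL22A1 and COL4A4, were not analysed here.

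The animals were 9 male finishing pigs, which started at about 95 kg and were slaughtered after 5 weeks on their diets. Pigs 1, 2 and 3 had received a lysine-deficient diet, pigs 5, 6 and 7 a lysine-adequate diet and pigs 9, 10 and 11 a lysine-excess diet. The labels name no other treatment and give no age or breed. Muscle was taken between the 10th and 12th ribs, and 1 whole-transcript array was hybridised per pig. Lysine is an essential amino acid, and the comparisons ask how its supply relates to gene expression in the muscle of pigs near market weight.

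Collagens are secreted proteins built from 3 chains wound into a triple helix, and lysine residues in those chains are hydroxylated, glycosylated and later cross-linked between molecules. In muscle, fibroblasts lay down the fibrillar types I, III and V in the sheaths around fibres and bundles, while type IV forms a network in the basement membrane of each fibre and capillary. Type VI links that membrane to the fibrils around it, and the FACIT collagens, such as types XII and XIV, sit on fibril surfaces.

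Values are the authors' log2 expression values, whose base was inferred from their range, and a difference of log2 values is given with its standard error (SE) from limma's fit over all 9 arrays. Levels of different genes are not compared, because each probe set has its own response. The overall medians of the arrays lay between 5.01 and 5.21. Excess pig 11 stood apart: its values had an SD of 1.82 against 1.93 to 1.99 in the other 8 pigs, and it correlated with them at 0.904 to 0.956. As a description of signal, the 12 collagen genes whose mean lay at or above 5.07, the median of all probe set means, are called brighter and the other 18 dimmer; this split was chosen after the values were seen. COL8A2 at 5.10 was the closest above that level, and COL5A3 at 5.06 and COL8A1 at 5.00 were the closest below it. The markers of muscle fibres MYH1, MYH7 and ACTA1 had means of 12.89, 12.56 and 12.63, and the tendon markers TNMD and COMP had means of 4.10 and 4.83.

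No collagen gene passed an adjusted p of 0.05 in any comparison by limma with Benjamini-Hochberg adjustment over all probe sets, and neither did any of the other probe sets (0% in each comparison). The lowest adjusted p among the collagen genes was 1.00 for deficient against adequate, 0.757 for excess against adequate and 0.872 for deficient against excess. The values below are therefore differences that did not pass the test. They had a common feature: for 11 of the 12 brighter collagen genes the adequate pigs had the highest mean of the 3 diets, as did 49% of all brighter genes, 34.2% of all named genes and 31.3% of all probe sets. With 1 probe set per gene, in no collagen gene did the 3 adequate pigs all lie above the other 6, as they did in 0.758% of probe sets; in the 2 probe sets of COL6A3 that were not used, they did. The array measures RNA from whole muscle, in which fewer cells of a type and less RNA per cell cannot be told apart.

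**Figure D1:**
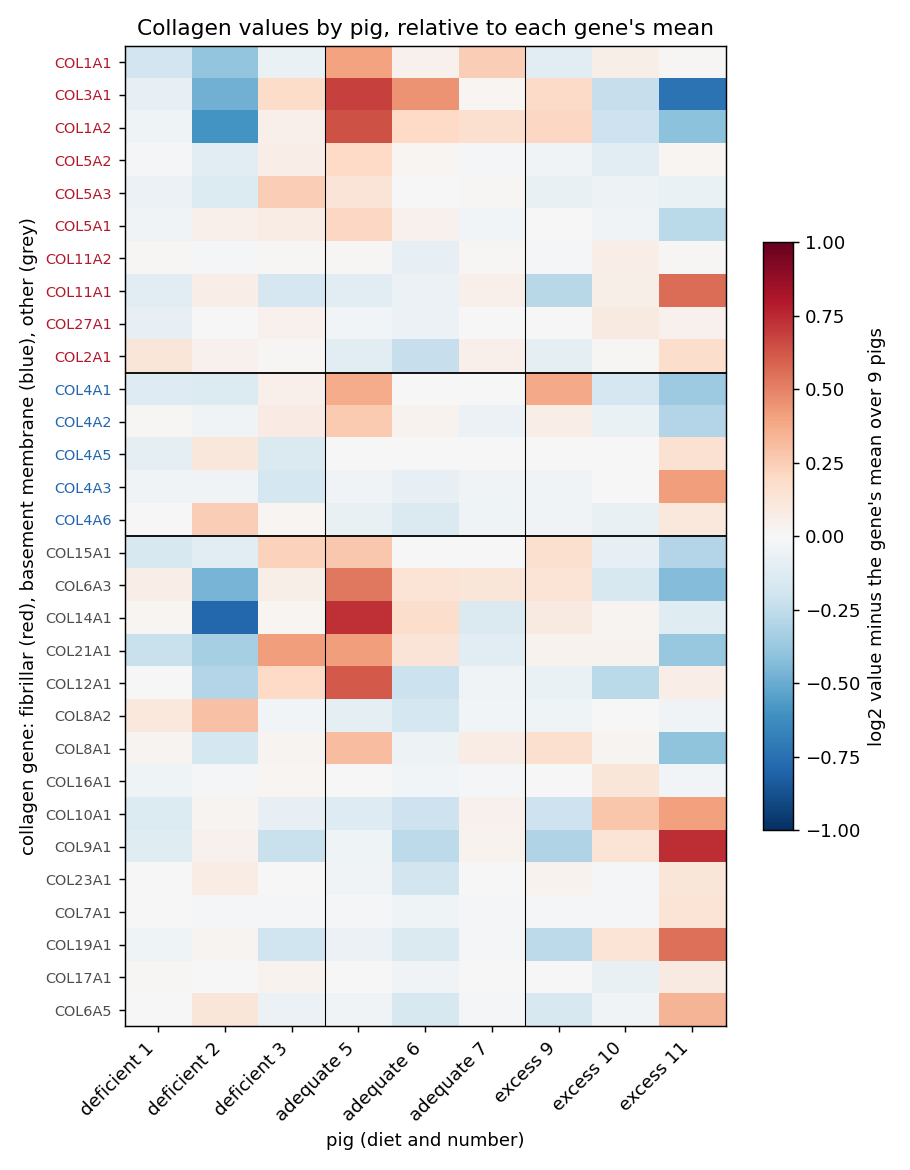
Collagen genes by pig. Each row is 1 of the 30 collagen genes, each column 1 of the 9 pigs grouped by diet, and the colour is the log2 value minus the gene's mean over the 9 pigs. Adequate pig 5 was the highest pig for 10 of the 12 brighter genes, deficient pig 2 and excess pig 11 were each the lowest for 5 of them, and pig 11 was the highest for 11 of the 18 dimmer genes.

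Among the fibrillar collagens, the chains of types I and III had the largest differences in size. COL1A1 encodes the alpha 1 chain of type I collagen, the main fibril protein of muscle connective tissue. Its values were 10.53, 10.33 and 10.66 in the deficient pigs, 11.13, 10.77 and 10.97 in the adequate pigs and 10.61, 10.78 and 10.74 in the excess pigs. All 3 deficient pigs lay below all 3 adequate pigs, while the lowest adequate pig lay just under the highest excess pig. The deficient mean was 1.37-fold lower than the adequate mean, a log2 difference of -0.45 ± 0.12 (SE, n = 3 pigs per diet, limma unadjusted p = 0.00578, adjusted p = 1.00). The excess mean lay -0.25 ± 0.12 from the adequate mean, or 1.19-fold lower (limma unadjusted p = 0.0725). Over all diets, limma's F test gave COL1A1 an unadjusted p of 0.0174 (limma adjusted p = 0.933). No other collagen gene was under the threshold of 0.05 in that test, where 2.54% of probe sets were. The second probe set of COL1A1 gave -0.27 ± 0.16 for deficient against adequate (limma unadjusted p = 0.146). The pigs again did not overlap, but deficient pig 3 at 7.27 lay just under adequate pig 7 at 7.29. For excess against adequate this probe set gave -0.33 ± 0.16 (limma unadjusted p = 0.0824). For deficient against excess it gave 0.06, where the brighter probe set gave -0.20.

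COL1A2 encodes the alpha 2 chain of the same type I molecule. It read 8.58, 8.02 and 8.67 in the deficient pigs, 9.26, 8.82 and 8.78 in the adequate pigs and 8.83, 8.41 and 8.21 in the excess pigs. The deficient pigs again lay below every adequate pig, and excess pig 9 lay above adequate pigs 6 and 7 by a small margin. The differences from adequate were -0.53 ± 0.23 for deficient (1.44-fold lower, limma unadjusted p = 0.0521) and -0.47 ± 0.23 for excess (1.38-fold lower, limma unadjusted p = 0.0783). Without deficient pig 2, which had the lowest value, the first difference was -0.33, and with the spread of each array as a covariate the second was -0.23.

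COL3A1 encodes type III collagen, which forms fine fibrils together with type I. It read 9.06, 8.66 and 9.32 in the deficient pigs, 9.82, 9.59 and 9.16 in the adequate pigs and 9.33, 8.91 and 8.40 in the excess pigs. Here the groups overlapped, since adequate pig 7 lay below deficient pig 3 and excess pig 9. The differences from adequate were -0.51 ± 0.28 for deficient (1.42-fold lower, limma unadjusted p = 0.109) and -0.65 ± 0.28 for excess (1.56-fold lower, limma unadjusted p = 0.0524). The deficient difference was -0.33 without deficient pig 2. The excess difference was -0.40 without excess pig 11 and -0.27 with array spread as a covariate.

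Type V collagen is a minor partner that takes part in starting type I fibrils and limiting their width, and its 3 chains differed less between diets. COL5A2 read 6.48, 6.39 and 6.57 in the deficient pigs, 6.70, 6.52 and 6.48 in the adequate pigs and 6.47, 6.39 and 6.52 in the excess pigs, so that all 3 groups overlapped. Its differences from adequate were -0.09 ± 0.08 for deficient and -0.11 ± 0.08 for excess, and both shrank without adequate pig 5, to -0.02 and -0.05. COL5A1 differed by -0.05 ± 0.09 for deficient and -0.18 ± 0.09 for excess (limma unadjusted p = 0.101). COL5A3 read 4.98, 5.01 and 4.99 in the excess pigs against 5.19, 5.06 and 5.07 in the adequate pigs. With 1 probe set per gene, it was the only collagen gene whose excess pigs all lay on 1 side of the adequate pigs, by a difference of -0.11 ± 0.10. In that comparison the excess pigs all lay below the adequate pigs in 3.84% of probe sets and all above them in 3.2%.

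The remaining fibrillar genes, COL2A1, COL11A1, COL11A2 and COL27A1, were all dimmer. COL2A1 and the 2 type XI genes encode the fibrils of cartilage. They differed from adequate by -0.03 to 0.16 in the deficient pigs and by 0.04 to 0.15 in the excess pigs. The highest value of COL11A1, 5.12, was that of excess pig 11.

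**Figure D2:**
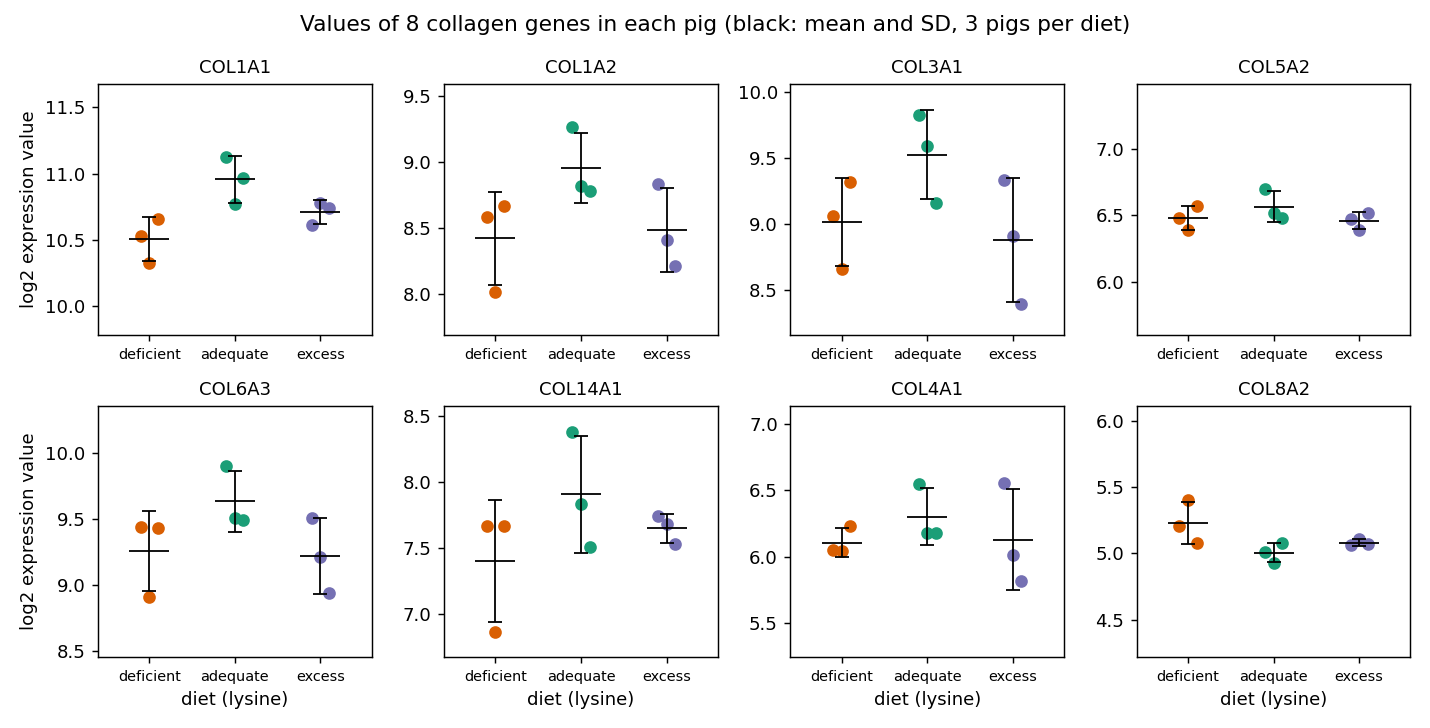
Values of leading collagen genes by diet. Each panel is 1 gene, each point 1 pig with its log2 value, and the black lines give the mean and SD of 3 pigs. In COL1A1, COL1A2 and COL6A3 every deficient point lies below every adequate point, and in COL8A2 the deficient mean is the highest.

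Of the basement membrane collagens, COL4A1 and COL4A2 make up the chains of the most widespread type IV network. COL4A1 read 6.05, 6.04 and 6.23 in the deficient pigs, 6.55, 6.18 and 6.18 in the adequate pigs and 6.56, 6.01 and 5.82 in the excess pigs. The 3 groups overlapped, and the highest values belonged to adequate pig 5 and excess pig 9. Of the remaining pigs, those of the deficient and adequate diets overlapped, and excess pigs 10 and 11 lay below them. COL4A1 differed from adequate by -0.20 ± 0.20 in the deficient pigs (limma unadjusted p = 0.339) and by -0.18 ± 0.20 in the excess pigs (limma unadjusted p = 0.398). Without adequate pig 5 these were -0.08 and -0.05, and the excess difference was -0.39 without excess pig 9. COL4A2 read 6.18, 6.13 and 6.25 in the deficient pigs, 6.43, 6.20 and 6.11 in the adequate pigs and 6.23, 6.10 and 5.87 in the excess pigs. Its groups overlapped as well, and its differences were -0.06 ± 0.12 and -0.18 ± 0.12.

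The other type IV chains were dimmer, and they form networks of restricted distribution such as those of the kidney and lung. COL4A6 read 4.14, 4.39 and 4.16 in the deficient pigs and 4.07, 4.0 and 4.10 in the adequate pigs. The deficient pigs lay above all adequate pigs, with a difference of 0.17 ± 0.09 (limma unadjusted p = 0.0925). COL4A3 and COL4A5 each differed by -0.03 in the deficient pigs, and by 0.18 and 0.06 in the excess pigs. The value of 4.68 in excess pig 11 was the highest of COL4A3, which lay between 4.09 and 4.27 in the other 8 pigs.

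Among the other types, COL6A3 encodes the large chain of type VI collagen, the beaded filament between basement membrane and fibrils. It read 9.44, 8.91 and 9.43 in the deficient pigs, 9.90, 9.51 and 9.49 in the adequate pigs and 9.51, 9.21 and 8.94 in the excess pigs. The deficient pigs all lay below the adequate pigs, 2 of them by a narrow gap, and excess pig 9 reached the level of adequate pigs 6 and 7. The differences were -0.38 ± 0.20 for deficient (1.30-fold lower, limma unadjusted p = 0.104) and -0.42 ± 0.20 for excess (1.33-fold lower, limma unadjusted p = 0.0779). Over its 3 probe sets the differences ran from -0.48 to -0.38 for deficient and from -0.55 to -0.42 for excess. In both of its other probe sets all excess pigs, as well as all deficient pigs, lay below all adequate pigs (limma unadjusted p = 0.0334 and 0.0939 for excess). The deficient difference was -0.20 without deficient pig 2 and -0.25 without adequate pig 5, and the excess difference was -0.27 without excess pig 11.

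COL14A1 and COL12A1 encode FACIT collagens of fibril surfaces, and COL21A1 belongs to the same subfamily. COL14A1 read 7.67, 6.87 and 7.67 in the deficient pigs, 8.38, 7.83 and 7.51 in the adequate pigs and 7.74, 7.68 and 7.53 in the excess pigs. Adequate pig 5 was the highest and deficient pig 2 the lowest, while the pigs between them overlapped across diets. Its differences from adequate were -0.50 ± 0.27 for deficient (1.42-fold lower, limma unadjusted p = 0.106) and -0.26 ± 0.27 for excess (limma unadjusted p = 0.378). These were -0.27 and -0.02 without adequate pig 5, and the deficient difference was -0.23 without deficient pig 2. COL12A1 differed by -0.16 ± 0.22 and -0.21 ± 0.22, and its highest value of 5.87 was that of adequate pig 5. Without that pig its differences turned to 0.09 and 0.03. COL21A1 differed by -0.19 ± 0.23 and -0.25 ± 0.23.

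COL15A1 encodes a collagen of the outer face of the basement membrane in muscle and vessels. It read 10.69, 10.74 and 11.08 in the deficient pigs, 11.12, 10.85 and 10.85 in the adequate pigs and 11.01, 10.77 and 10.56 in the excess pigs. The 3 groups overlapped, with differences of -0.10 ± 0.15 and -0.16 ± 0.15.

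COL8A2, a chain of the short-chain network collagen type VIII, was the brighter collagen gene that ran the other way. It read 5.21, 5.40 and 5.08 in the deficient pigs, 5.01, 4.93 and 5.08 in the adequate pigs and 5.06, 5.11 and 5.07 in the excess pigs. Deficient pigs 1 and 2 lay above every other pig, and pig 3 lay at the level of adequate pig 7. The deficient mean was 1.16-fold higher than the adequate mean, a difference of 0.22 ± 0.09 (limma unadjusted p = 0.0413, adjusted p = 1.00), and 0.13 without deficient pig 2. COL8A1, which encodes the other type VIII chain, differed by -0.15 for deficient and by -0.18 for excess, but its second probe set gave -0.11 and 0.15.

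The other 8 genes of this class were dimmer. COL17A1, which encodes a transmembrane collagen of epithelial attachment, read 4.17, 4.16 and 4.19 in the deficient pigs and 4.15, 4.12 and 4.15 in the adequate pigs. The 2 groups did not overlap, yet the difference was only 0.04. COL6A5, COL7A1, COL9A1, COL10A1, COL16A1, COL19A1 and COL23A1 differed from adequate by -0.01 to 0.10 in the deficient pigs and by 0.04 to 0.28 in the excess pigs. COL9A1, a cartilage FACIT gene, had the largest of these, 0.28 ± 0.24, with a value of 5.32 in excess pig 11 and 4.28 to 4.72 in the other 8 pigs.

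**Figure D3:**
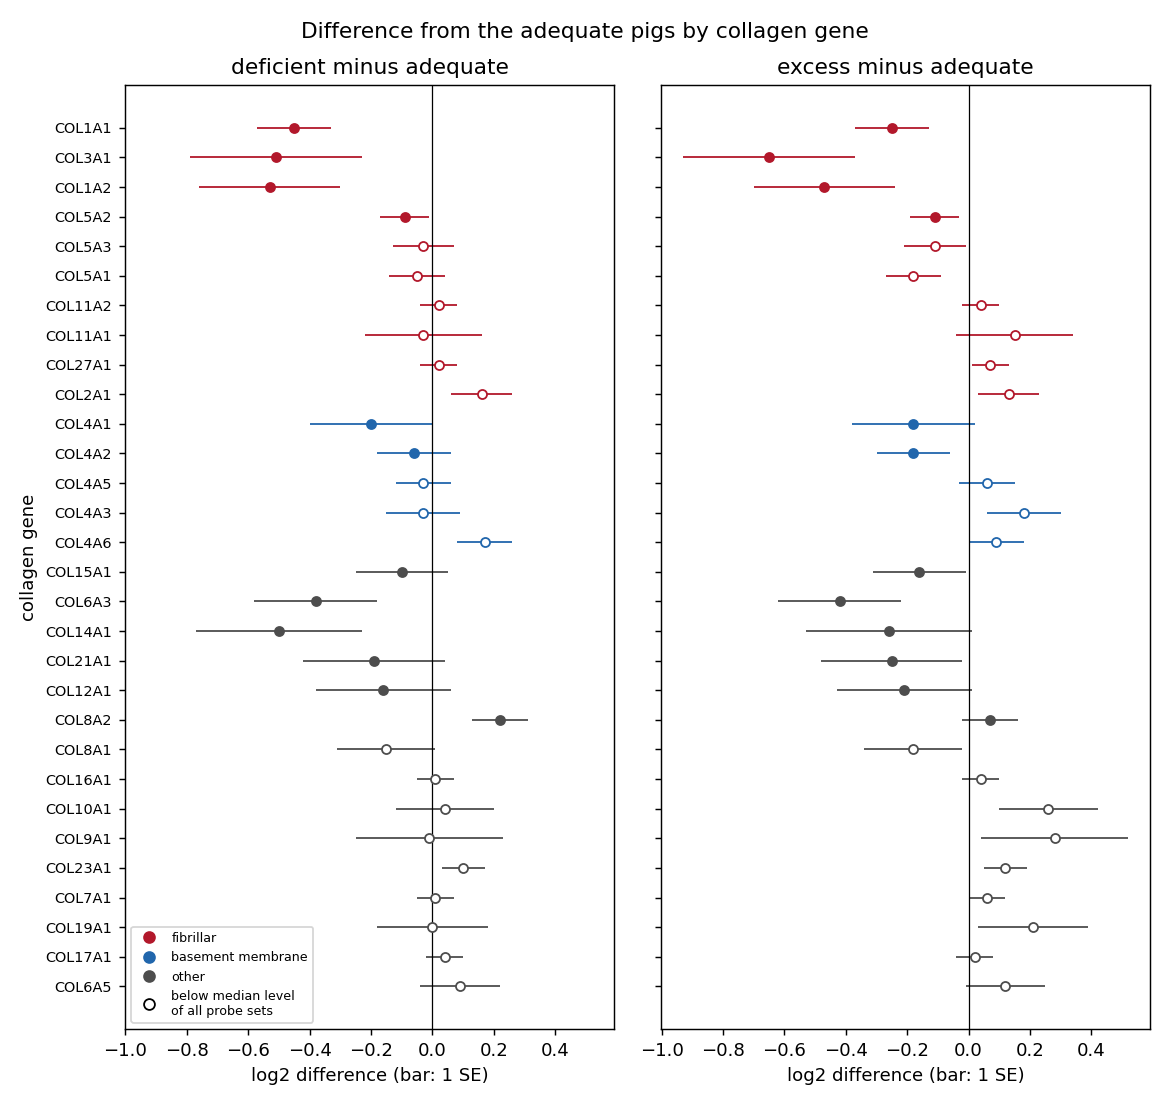
Differences of the 30 collagen genes from the adequate pigs. Points are log2 differences with bars of 1 SE (n = 3 pigs per diet), deficient minus adequate on the left and excess minus adequate on the right, coloured by class and open where the gene was dimmer. COL1A1, COL1A2, COL3A1, COL14A1 and COL6A3 lie at -0.38 or lower on the left, and most open points lie near or above 0.

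Counted with 1 probe set per gene, 19 of the 30 collagen genes were lower and 11 higher in deficient than in adequate pigs, with a median difference of -0.03; 47% of all probe sets and 48.3% of all named genes were lower. An unadjusted limma p under 0.05 was reached by 2 collagen genes, COL1A1 (lower) and COL8A2 (higher), and by 1.85% of probe sets. The deficient pigs all lay below the adequate pigs in 3 collagen genes, against 3.07% of probe sets, and all above them in 2, against 3.77%. In excess against adequate, 14 collagen genes were lower and 16 higher, with a median of 0.03 (49.8% of probe sets and 54.5% of named genes were lower). With 1 probe set per gene, no collagen gene reached an unadjusted limma p under 0.05 in that comparison, where 3.56% of probe sets did. An unused probe set of COL6A3 did so, as given above. In deficient against excess, 16 were lower and 14 higher, with a median of -0.02 (50% of probe sets and 46.1% of named genes were lower). None reached an unadjusted limma p under 0.05, against 4.08% of probe sets, and in none were the groups separate, against 2.19% lower and 4.28% higher.

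The class medians were small, and the difference between classes was not tested. The fibrillar median was -0.04 for deficient and -0.11 for excess against adequate, with 7 and 6 of 10 genes lower. The basement membrane median was -0.03 and 0.06, with 4 and 2 of 5 lower, and the median of the other types was 0.00 and 0.04, with 8 and 6 of 15 lower. These medians mixed brighter and dimmer genes. Among brighter genes alone, the median of the 4 fibrillar genes was -0.48 for deficient and -0.36 for excess, that of COL4A1 and COL4A2 was -0.13 and -0.18, and that of 6 genes of other types was -0.18 and -0.23. All 4 brighter fibrillar genes were lower in both comparisons, which share the adequate pigs.

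Among the 12 brighter collagen genes, 11 were lower in deficient than in adequate pigs, with a median of -0.20. Of all 6834 brighter genes, 57.8% were lower, with a median of -0.03. In excess against adequate pigs, 11 of the 12 were also lower, with a median of -0.23, but so were 77.7% of all brighter genes, with a median of -0.14. Brighter genes were thus mostly lower in the excess pigs across the whole array, and the part of this in the collagen differences was not tested. Without excess pig 11, 56.8% of all brighter genes were lower, with a median of -0.02, and 11 of the 12 collagen genes still were, with a median of -0.17. With array spread as a covariate, the counts of lower collagen genes were 11 of 12 (median -0.15) for deficient and 9 of 12 (median -0.11) for excess. In deficient against excess the brighter collagen genes had a median of 0.05, with 4 of 12 lower, where 30% of all brighter genes were lower. That direction did not hold throughout: 8 of 12 were lower with the covariate (median -0.14), 10 of 12 with array weights (median -0.13), 8 of 12 without excess pig 11 (median -0.09) and 10 of 12 without deficient pig 3 (median -0.06). For the comparisons with adequate pigs, under the covariate 50.7% and 49.5% of all brighter genes were lower. The 18 dimmer genes had medians of 0.01 for deficient and 0.08 for excess, against 0.02 and 0.06 in all dimmer genes.

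**Figure D4:**
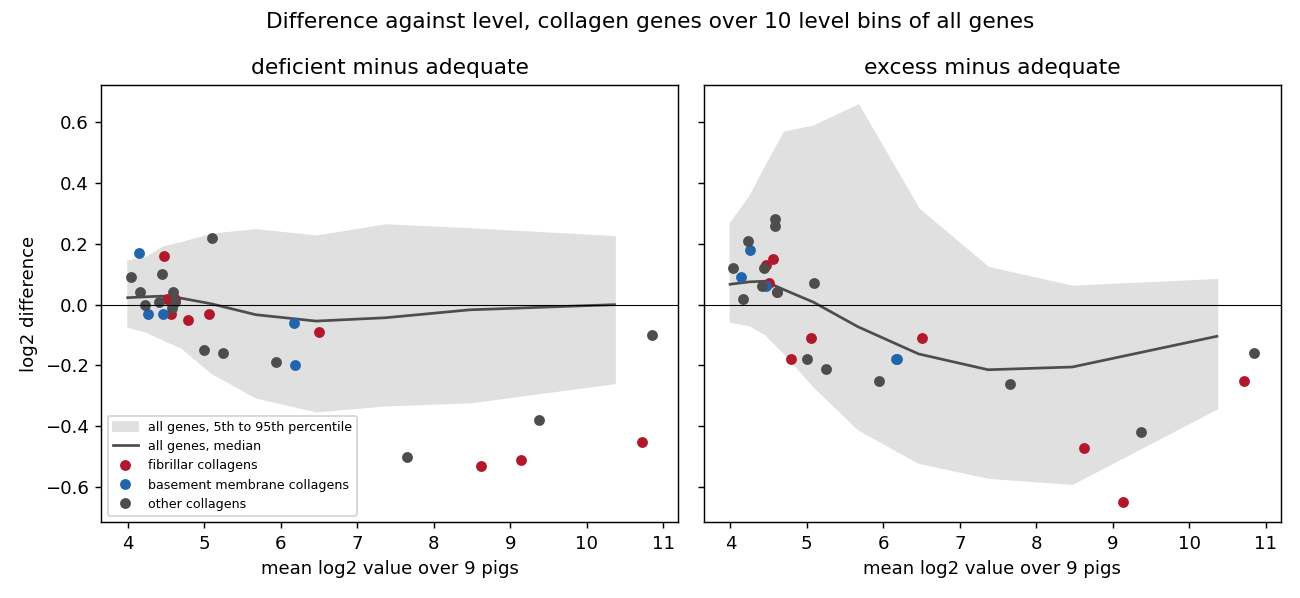
Difference against level. Each point is 1 collagen gene, with its mean log2 value over 9 pigs on the x axis and its log2 difference from adequate on the y axis, and the line and grey band give the median and the 5th to 95th percentile of all genes in 10 bins of level. On the left, COL1A1, COL1A2, COL3A1, COL6A3 and COL14A1 lie below the 5th percentile of genes of like level, and on the right the line itself falls below 0 for genes with means over about 5.1.

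Pigs of the same diet differed widely. Taking each gene's deviation from its mean over 9 pigs, the median over the 12 brighter collagen genes was 0.41 in adequate pig 5, 0.04 in adequate pig 6 and -0.01 in adequate pig 7. Pig 5 had the highest value of all 9 pigs in 10 of the 12, and in 899 of the 6834 brighter genes. The deficient pigs had medians of -0.03, -0.31 and 0.06, and the excess pigs 0.07, -0.10 and -0.29. Deficient pig 2 was the lowest pig in 5 of the 12 collagen genes and in 403 of all brighter genes. Excess pig 11 was also the lowest in 5 of the 12, but in 4116 of all brighter genes. Without adequate pig 5, 9 of the 12 were lower in deficient pigs, with a median of -0.07, and 10 of the 12 in excess pigs, with a median of -0.08. Of all brighter genes, 55.9% (median -0.02) and 76.5% (median -0.13) were lower without that pig. All 4 brighter fibrillar genes were also lower without that pig, with medians of -0.36 and -0.24. Without deficient pig 2, the deficient median was -0.11 over the 12 genes and -0.33 over the 4 fibrillar ones.

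Pairs of collagen chains, some of the same molecule and some of different ones, were compared across the 9 pigs, in 5 pairs that could be measured of 8 considered, with exact two-sided permutation p-values adjusted over the 5. All points of a pair share the same libraries. Excess pig 11 had a median deviation of -0.31 over all brighter genes and of -0.33 over COL4A1 and COL4A2. The part of such array-wide shifts in the correlations was not tested. COL4A1 and COL4A2, which are neighbouring genes in the pig gene table, had a Pearson r of 0.85 (n = 9, exact permutation p = 0.00292, adjusted p = 0.0146) and a Spearman rho of 0.88 (exact permutation p = 0.00322, adjusted p = 0.0161). The r was 0.89 without adequate pig 5 and excess pig 9, the pigs farthest from the COL4A1 median (n = 7, exact permutation p = 0.00992), and 0.90 over the deviations from the diet means. Without adequate pig 5 alone the r was 0.76 and its adjusted exact permutation p was 0.25.

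COL1A1 and COL1A2, which form the type I molecule, had an r of 0.73 (n = 9, exact permutation p = 0.0271, adjusted p = 0.0677) and a rho of 0.50 (exact permutation p = 0.178, adjusted p = 0.337). This rested on deficient pig 2 and adequate pig 5, without which the r was 0.05. With the mean of both COL1A1 probe sets in place of the brighter one, the r was 0.93 and its adjusted exact permutation p 0.00214. With the brighter probe set, the adjusted exact permutation p was also under 0.05 under quantile normalization (r = 0.76, adjusted p = 0.0453), under median centring (r = 0.80, adjusted p = 0.0265), without excess pig 9 (r = 0.80, adjusted p = 0.0497) and without excess pig 11 (r = 0.81, adjusted p = 0.0398). COL1A1 and COL3A1 had an r of 0.54 (n = 9, exact permutation p = 0.132, adjusted p = 0.22) and a rho of 0.42 (exact permutation p = 0.27), and the r was -0.05 without the same pair of pigs. With the mean of both COL1A1 probe sets it was 0.87 (adjusted exact permutation p = 0.00487). COL5A1 and COL5A2 had an r of 0.43 (exact permutation p = 0.227, adjusted p = 0.284) and a rho of 0.47 (exact permutation p = 0.213); the r was 0.39 without adequate pig 5 and excess pig 11. It was 0.75 under median centring and 0.81 without excess pig 11 (adjusted exact permutation p = 0.0398 in each), and -0.29 under quantile normalization. The pair from different classes, COL1A1 and COL4A1, had an r of 0.37 (exact permutation p = 0.33, adjusted p = 0.33) and a rho of 0.15 (exact permutation p = 0.7), and -0.19 without deficient pig 2 and adequate pig 5. With the mean of both COL1A1 probe sets the r was 0.72 (adjusted exact permutation p = 0.0322). Over the deviations from the diet means, with 1 probe set per gene, the r was 0.49 for COL1A1 with COL1A2 and 0.25 for COL1A1 with COL3A1. It was 0.24 for COL5A1 with COL5A2 and 0.14 for COL1A1 with COL4A1. Chromosomal neighbours in the table also include COL3A1 with COL5A2, COL9A1 with COL19A1 and COL4A5 with COL4A6.

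**Figure D5:**
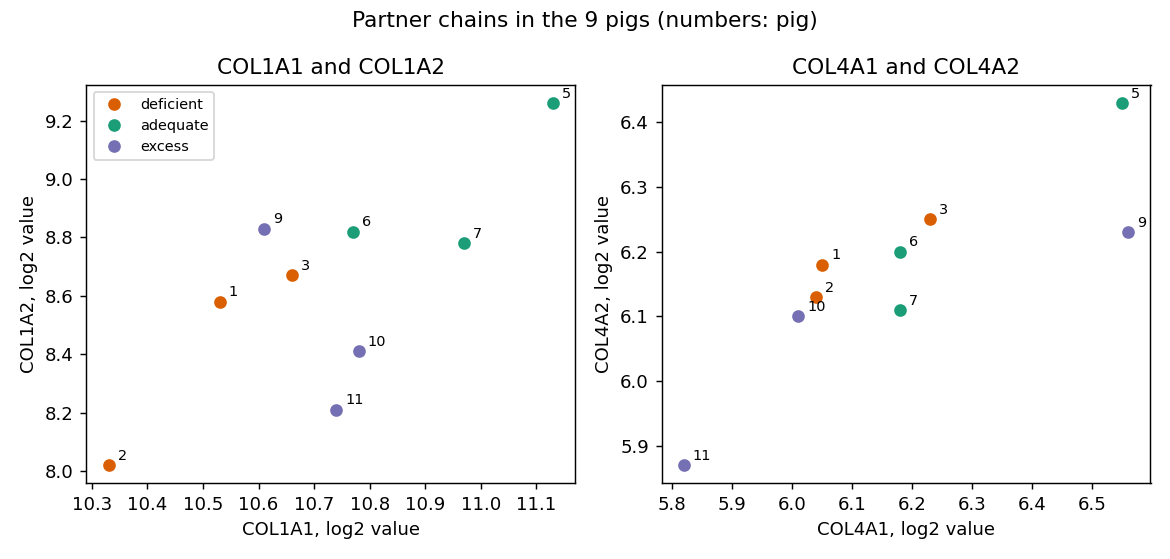
Chains of the same molecule across pigs. Each panel plots the log2 value of 1 chain against that of its partner, 1 point per pig coloured by diet. COL4A1 and COL4A2 lie along a line (r = 0.85), while in COL1A1 and COL1A2 adequate pig 5 and deficient pig 2 lie at opposite ends of the cloud (r = 0.73).

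Genes that make, process and break down collagen were followed through 6 lists with 64 measured members. None passed an adjusted p of 0.05. In deficient against adequate, 50 of the 64 were lower, with a median of -0.07, and 3 had an unadjusted limma p under 0.05, all lower (4.69% of the 64, against 1.85% of probe sets). In excess against adequate, 52 were lower, with a median of -0.15, and 5 had such a p, all lower (7.81%, against 3.56% of probe sets). Of the 64 genes 43 were brighter, and 57.8% and 77.7% of all brighter genes were lower in the same comparisons. The rest of the 64 were dimmer, and 36.6% and 25.7% of all dimmer genes were lower. The counts of lower genes stand beside both shares. Of all 6834 brighter genes, 181 and 302 had an unadjusted limma p under 0.05 in these comparisons, and 111 and 275 of those were lower.

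Folding and modification enzymes act on the new chains in the endoplasmic reticulum. Of 14 measured genes, 12 were lower in deficient pigs (median -0.09) and 14 in excess pigs (median -0.21). P3H4, which encodes a subunit of the complex that modifies type I chains, differed by -0.29 ± 0.12 between deficient and adequate pigs, which did not overlap (limma unadjusted p = 0.0434). SERPINH1 encodes the collagen chaperone HSP47. It read 7.34, 6.63 and 5.66 in the excess pigs against 7.84, 7.31 and 7.27 in the adequate pigs, with excess pig 11 far below the rest. The difference was -0.93 ± 0.40 (1.91-fold lower, limma unadjusted p = 0.0497), or -0.49 without that pig. PPIB, a prolyl isomerase of the same compartment, differed by -0.58 ± 0.24 in excess pigs (limma unadjusted p = 0.0464) and by -0.27 without pig 11. P4HA1, the catalytic subunit of prolyl 4-hydroxylase, lay 0.67 higher in deficient than in excess pigs (limma unadjusted p = 0.044), and it differed from adequate by 0.26 ± 0.28 and -0.42 ± 0.28. Without excess pig 11 the first and last of these were 0.41 and -0.16, and the deficient difference was 0.06 without adequate pig 6 and 0.43 without adequate pig 5. The lysyl hydroxylase genes, whose products modify the lysine residues of collagen, differed by -0.32 ± 0.23 and -0.46 ± 0.23 for PLOD1 and by -0.07 ± 0.16 and -0.25 ± 0.16 for PLOD2. The deficient difference of PLOD1 was -0.15 without deficient pig 1 and -0.54 without deficient pig 3. SPARC, a collagen-binding protein, differed by -0.27 ± 0.14 in deficient pigs, all of which lay at or below 10.77 with all adequate pigs at or above 10.87, and by -0.24 ± 0.14 in excess pigs, or -0.12 without excess pig 11. P4HB was not analysed here.

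Processing and cross-linking enzymes work outside the cell, and 6 and 7 of 11 were lower, with medians of -0.02 and -0.03. ADAMTS2, which removes the amino-terminal propeptide of types I and III, read 6.15, 6.06 and 6.63 in the deficient pigs, 7.31, 6.83 and 6.89 in the adequate pigs and 6.88, 6.49 and 6.23 in the excess pigs. Every deficient pig lay below every adequate pig. The differences were -0.73 ± 0.22 for deficient (1.66-fold lower, limma unadjusted p = 0.0118) and -0.48 ± 0.22 for excess (limma unadjusted p = 0.0652). BMP1, which removes the carboxy-terminal propeptide, differed by -0.35 ± 0.23 in deficient pigs, again without overlap, and by -0.47 ± 0.23 in excess pigs. Without adequate pig 5, whose value was 6.07, these were -0.12 and -0.23. LOX oxidises lysine residues for cross-linking, and it differed by -0.23 ± 0.27 in deficient and -0.63 ± 0.27 in excess pigs (limma unadjusted p = 0.0497 for excess).

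Of the 13 genes in the degradation list, which includes the inhibitors TIMP1, TIMP2 and TIMP3, 13 were lower in deficient pigs (median -0.10) and 9 in excess pigs (median -0.18). Some of these differences were close to none, with 0.00 to 2 decimals for MMP1 and TIMP2 and -0.01 for MMP9 in deficient pigs. MMP2, a gelatinase, read 8.47, 8.26 and 8.65 in the deficient pigs, 9.31, 8.93 and 8.67 in the adequate pigs and 8.70, 8.23 and 8.10 in the excess pigs. The deficient pigs all lay below the adequate pigs, with pig 3 just under pig 7, and excess pig 9 lay just above adequate pig 7. The differences were -0.51 ± 0.21 (limma unadjusted p = 0.0421) and -0.63 ± 0.21 (limma unadjusted p = 0.0183). MMP14, which activates MMP2 at the cell surface, differed by -0.13 and -0.32, and the inhibitor TIMP1 by -0.20 and -0.25, none with an unadjusted limma p under 0.05. Without adequate pig 5 the TIMP1 differences were -0.03 and -0.08.

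Of 6 measured collagen receptors, 4 were lower in each comparison, with medians of -0.03 and -0.11. The collagen-binding kinase DDR2 differed by -0.07 and -0.15 and the integrin ITGA11 by -0.08 in both. Of 11 genes of TGF-beta signalling, which drives collagen transcription in fibroblasts, 8 and 11 were lower, with medians of -0.06 and -0.12. These counts mix genes with different roles, SMAD7 and SKIL among them, and the activity of the signalling was not measured. The ligand TGFB1 differed by 0.04 ± 0.17 and -0.33 ± 0.17, and the co-receptor TGFBR3 by -0.01 ± 0.12 and -0.31 ± 0.12 (limma unadjusted p = 0.0298 for excess). The excess difference of TGFB1 was -0.16 without adequate pig 5. TGFBR3 was also 0.30 higher in deficient than in excess pigs (limma unadjusted p = 0.035). Of 9 other basement membrane genes, 7 were lower in each comparison, with medians of -0.05 and -0.10. The laminin chain of muscle, LAMA2, differed by 0.00 ± 0.10 and -0.10 ± 0.10, and the perlecan gene HSPG2 by -0.32 ± 0.21 and -0.30 ± 0.21. The deficient difference of HSPG2 was -0.15 without deficient pig 2 and -0.49 without deficient pig 3, and the excess difference was -0.16 without excess pig 11 and -0.04 with array spread as a covariate. CCN2 and NID1 were not analysed here.

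Markers of cell types were set beside the collagens. Of 8 fibroblast markers other than collagens, 7 were measured. They had a median difference of -0.27 in deficient pigs, with 6 lower, and of -0.38 in excess pigs, with 7 lower. Their mean level was 8.92, 8.70 and 9.11 in the deficient pigs, 9.40, 9.08 and 9.04 in the adequate pigs and 9.01, 8.82 and 8.38 in the excess pigs. Adequate pig 5 was the highest here as in the brighter collagens, and excess pig 11 was the lowest. Lumican, LUM, a proteoglycan of collagen fibrils, differed by -0.27 ± 0.14 and -0.29 ± 0.14 (limma unadjusted p = 0.0923 and 0.0715). Its groups did not overlap in either comparison, but excess pig 10 and adequate pig 6 both read 12.24 to 2 decimals. Decorin, DCN, differed by -0.04 ± 0.12 and -0.24 ± 0.12. Dermatopontin, DPT, differed by -0.38 ± 0.21 and -0.70 ± 0.21, without overlap for excess (limma unadjusted p = 0.0124 for excess). All 7 fibroblast markers were brighter, and of all brighter genes 57.8% and 77.7% were lower in the same comparisons. The part of the fibroblast markers in the collagen differences was not tested.

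Markers of pericytes and smooth muscle had medians of -0.24 and -0.12 (5 of 7 measured), those of endothelium 0.06 and -0.01 (6 of 8 measured) and those of macrophages -0.18 and -0.22 (4 of 6 measured). Of 8 muscle fibre markers 3 were measured, with medians of -0.02 and 0.13. In deficient pigs 2 of the 3 were lower, and in excess pigs all 3 were higher. The 4 measured adipocyte markers had medians of 0.26 and -0.33. Their mean level ranged from 6.72 to 7.05 in the deficient pigs, from 6.42 to 6.92 in the adequate pigs and from 6.22 to 6.45 in the excess pigs. Of the cartilage, tendon and nerve lists 4, 2 and 1 genes were measured, and their mean levels stayed between 4.26 and 4.67 in the adequate and excess pigs. No satellite cell marker was measured.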

How the data were processed

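Total RNA of 9 muscle samples was hybridised to 1 array per pig, per the labels. The authors deposited log2 expression values, the base being inferred from the values. The submitters' processing notes list GCOS 1.2 and Partek and say nothing of their role; how background was corrected, probes summarized and arrays normalized is not given in the sources read. No further normalization was applied. Gene symbols came from the platform annotation, and the IDs of 28 of the 34 collagen probe sets were found in the pig gene table. COL4A5 stood in the annotation with 2 gene IDs for 1 symbol and was kept.

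Diet means were fitted over the 9 arrays together by lmFit and eBayes of limma 3.58.1 (R 4.3.3). Tests were two-sided, and p-values were adjusted by Benjamini-Hochberg over 27558 probe sets, which may include controls, with a threshold of 0.05. The code was tested on simulated data. The number of pigs, 3 per diet, limits the precision. The replicates were separate pigs, and the labels name no batch.

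The members, classes, lists and markers were chosen with earlier results of these data known. Named were a preset set of collagen, matrix and signalling genes, every collagen gene whose pigs of 1 diet lay beyond those of another, and every collagen or pathway gene with an unadjusted p under 0.05. Other collagen genes and markers were named after their values were seen. The alternatives were a second quantile normalization, median centring, fits to 6 arrays, an intensity trend (robust), array weights, array SD as a covariate, leaving out the dimmest 25% of probe sets, probe sets with 1 symbol, the mean of a gene's probe sets and leaving out each pig. Counting brighter genes alone and recomputing the correlations were added after the values were seen. No sequences or coordinates are given.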

Additional observations from a re-analysis of the deposited data

How the results depend on the processing

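No paired analysis was possible because the pigs of different diets share no replicate number. The limits are 3 pigs per diet, an untested signal over background for dim genes and an unknown normalization behind the values. In no alternative did any of the 94 differences followed for single genes pass an adjusted p of 0.05, and the sign of 61 held in every alternative. The cause of the changes below was not tested, except that leaving out dim probe sets or counting brighter genes alone tests fewer genes.

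Of the collagen genes, 2 had an unadjusted limma p under 0.05 in deficient against adequate. There was 1 under median centring, with the 6 arrays compared, with the intensity trend and with the dimmest probe sets left out, 6 with array weights, 4 with array SD as a covariate and 1 to 3 when a pig was left out. Of all 6834 brighter genes, 181 had such a p before these changes, 729 with array weights and 458 with the covariate. Among the 12 brighter collagen genes these counts were 2, 5 and 4. In excess against adequate the collagen count was 0, but 1 under quantile normalization, median centring and the mean of probe sets, and 0 to 7 when a pig was left out (7 without excess pig 9). In deficient against excess it was 0, and 0 to 4 when a pig was left out (4 without excess pig 9). Without excess pig 9, 1393 of all 6834 brighter genes had such a p in excess against adequate, against 302 with all pigs. In deficient against excess 1261 of them did, against 460 with all pigs. Of the 12 brighter collagen genes, 4 and 0 did so without that pig. Over all probe sets, array weights gave 1 past an adjusted p of 0.05 in deficient against adequate and 1 in the F test, and testing only probe sets with 1 symbol gave 1 in deficient against excess. The count of collagen genes lower in deficient than in excess pigs was 16, and 10 under median centring.

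The basement membrane median in excess against adequate was -0.02 under quantile normalization, 0.00 under median centring and -0.18 without the dimmest probe sets, and in deficient against excess it ranged from -0.08 to 0.07 when a pig was left out. The median of the other types in excess against adequate was -0.03 under quantile normalization, -0.01 under centring, 0.00 with the covariate, -0.06 without the dimmest and -0.02 to 0.06 when a pig was left out. In deficient against excess it was -0.02, but 0.02 under quantile normalization, 0.03 under centring and -0.05 to 0.02 when a pig was left out. In deficient against adequate it was -0.06 with the covariate, -0.06 without the dimmest and -0.04 to 0.02 when a pig was left out, and the fibrillar median ranged from -0.10 to -0.01. With brighter genes alone, 11 of 12 were lower in deficient against adequate and 4 of 12 in deficient against excess, the latter being 8 with the covariate and 10 with array weights. The fibrillar, basement membrane and other medians were then -0.48, -0.13 and -0.18 for deficient and -0.36, -0.18 and -0.23 for excess against adequate, and the basement membrane and other medians were 0.05 and 0.06 in deficient against excess.

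The sign of small differences turned in some alternatives. Against adequate, quantile normalization gave -0.04 for COL17A1 and -0.02 for COL4A5 in excess pigs and 0.00 for LAMA2 and TGFBR3 in deficient pigs. Median centring gave -0.04 for COL17A1 and 0.00 for COL4A5 in excess pigs. Array weights gave 0.04 for COL19A1 and 0.01 for COL4A5 in deficient pigs and 0.02 for COL4A1 in excess pigs. The covariate gave 0.03 for COL15A1, -0.02 for COL17A1, -0.06 for COL19A1, 0.07 for COL4A1, -0.02 for COL4A5, 0.09 for DDR2 and 0.01 for LAMA2 in excess pigs, and 0.02 for LAMA2 and 0.01 for TGFBR3 in deficient pigs. In deficient against excess, quantile normalization gave -0.04 for COL5A2 and -0.07 for COL6A3, and centring 0.03 for COL4A1. There, array weights gave -0.04 for COL12A1, -0.09 for COL15A1, -0.15 for COL3A1, -0.01 for COL5A2 and -0.16 for COL6A3, and the covariate -0.09 for COL15A1, 0.00 for COL19A1, -0.17 for COL3A1 and -0.13 for COL6A3.

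When 1 pig was left out, deficient against adequate ranged from -0.14 to 0.05 for COL5A3, -0.05 to 0.06 for COL19A1, -0.05 to 0.02 for COL4A3, -0.11 to 0.02 for COL4A5, -0.33 to 0.09 for COL12A1, -0.13 to 0.03 for COL4A2 and -0.09 to 0.02 for COL5A1. It ranged from -0.04 to 0.04 for LAMA2, -0.06 to 0.05 for TGFBR3, -0.21 to 0.06 for DDR2, -0.16 to 0.02 for PLOD2, -0.07 to 0.22 for TGFB1, -0.36 to 0.06 for MMP14 and -0.30 to 0.04 for SERPINH1. Excess against adequate ranged from -0.38 to 0.03 for COL12A1, -0.02 to 0.06 for COL17A1 and -0.17 to 0.01 for LAMA2. Deficient against excess ranged from -0.18 to 0.19 for COL4A1, -0.10 to 0.22 for COL6A3, -0.38 to 0.02 for COL14A1, -0.20 to 0.14 for COL1A2, -0.06 to 0.18 for COL12A1 and for COL15A1, -0.11 to 0.36 for COL3A1, -0.02 to 0.06 for COL5A2 and COL17A1 and -0.03 to 0.16 for COL5A3. The r of COL5A1 and COL5A2 was -0.29 under quantile normalization, 0.75 under median centring (adjusted exact permutation p = 0.0398) and -0.09 to 0.81 when a pig was left out.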

Other observations

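Some collagen probe sets carried exactly the same deposited value in several pigs. COL4A3 and COL7A1 each had 1 value shared by 5 of the 9 pigs, COL4A5 and COL11A2 had 1 shared by 4, and COL8A1, COL17A1 and COL27A1 had 1 shared by 3. All 7 were dimmer genes, so that 38.9% of the 18 dimmer collagen genes had a value shared by at least 3 pigs, against 28.5% of all dimmer probe sets. None of the 12 brighter collagen genes had one, against 12.5% of all brighter probe sets. The 3 adequate pigs and excess pigs 9 and 10 read 4.46 in COL4A5 to 2 decimals, and the separation of deficient from adequate pigs in COL17A1 rested on values of 4.16 to 4.19 against 4.12 to 4.15.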
